A study of Caenorhabditis elegans with 4 samples.

Results

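The abu and pqn genes of Caenorhabditis elegans encode secreted or intracellular proteins rich in glutamine and asparagine, and many of them belong to the cuticle that lines the pharynx. They were taken by symbol, after the array's sequence names had been paired with RefSeq symbols and the isoform letter dropped, which gave 71 genes, 15 named abu and 56 named pqn. Of these, 56 were tested (14 abu and 42 pqn) among 13685 tested genes in all. Another 11 were too dim on the arrays, and 4 had no probe that could be named for them. The pqn symbol was given for amino acid content alone, so it also covers genes with known roles outside the pharynx, and whole-worm RNA does not show in which tissue a transcript was made.

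On each of 4 two-colour arrays, RNA of isp-1(qm150);ceh-23(ms23) double mutants was set against RNA of isp-1(qm150) single mutants. Animals of both genotypes were synchronized at mid-L4 and kept at 20 °C on Escherichia coli OP50, and both carried isp-1(qm150), a mutation in the Rieske iron-sulphur protein of mitochondrial complex III that slows development and lengthens life. The homeobox gene ceh-23 was mutated in the double mutant alone, so the comparison asks which transcripts differ in isp-1 animals when ceh-23 is also mutated. There were 3 biological replicates, and replicate 1 was hybridised a second time with the dyes exchanged.

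The abu genes ("activated in blocked unfolded protein response") were first found as transcripts induced when endoplasmic reticulum stress meets a disabled unfolded protein response, and the engulfment receptor CED-1 was linked to their expression. Later work placed many abu and pqn genes in a group that is transcribed in the pharynx around each molt, when the worm sheds and rebuilds its cuticle. Their proteins have low-complexity sequence, and ABU-14 has been seen in the pharyngeal cuticle itself.

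The share of spots marked as clearly brighter than background was 62.4% to 77.5% in the double mutant's channel and 62.2% to 78.4% in the isp-1 channel, no spot of an abu or pqn gene was saturated, and the number of arrays limits the precision. Replicate 1 had a slide to itself, and replicates 2 and 3 shared the other. The ceh-23 probe was above background on only 2 of 4 arrays in each genotype and averaged -0.09 ± 0.10 log2 (SD, n = 3), so its signal does not check the genotype labels, and what the allele changes in the gene is not given in the sources used here. Among all genes, those of the germline and of sperm had lower ratios, with medians of -0.74 over 10 germline markers and -0.80 over 9 tested sperm markers.

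No abu or pqn gene passed an adjusted p of 0.05 (limma, Benjamini-Hochberg over all genes tested), where 0.775% of all genes were called higher in the double mutant and 2.59% lower, 3.37% in either direction. At an unadjusted p under 0.05, 4 of the 56 members were higher, against 13.6% of all genes, and 4 were lower, against 22.3%. The median log2 ratio of the members was 0.14 and that of all genes was -0.01, and 36 of the 56 members (64.3%) had a mean above 0, against 48.3% of all genes. The members' mean ratios ran between -0.63 and 0.57 log2. When 4 arrays of equal sign and a mean difference of 1.5-fold or more were asked for, 0 members were higher (1.37% of all genes) and 1, pqn-82, was lower (7.89% of all genes).

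The abu genes differed more between replicates than most genes did. Their median log2 ratio was 0.61 in replicate 1, -0.19 in replicate 2 and 0.10 in replicate 3, while the median of all genes stayed between -0.05 and 0.02. The median SD over the 3 replicates was 0.56 for the abu genes, 0.19 for the pqn genes and 0.18 for all genes. In replicate 1, 7 of 14 abu genes were at least 1.5-fold higher in the double mutant, where 2.52% of all genes were. In replicate 2 none of the 14 was, where 5.22% of all genes were, and 2 of them were at least 1.5-fold lower, where 16.7% of all genes were. In replicate 3 none was at least 1.5-fold higher, against 0.884% of all genes, and 1, abu-3, was at least 1.5-fold lower, against 1.83%. Without replicate 1 the abu median was -0.04, so the sign of the abu median rests on that replicate.

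**Figure D1:**
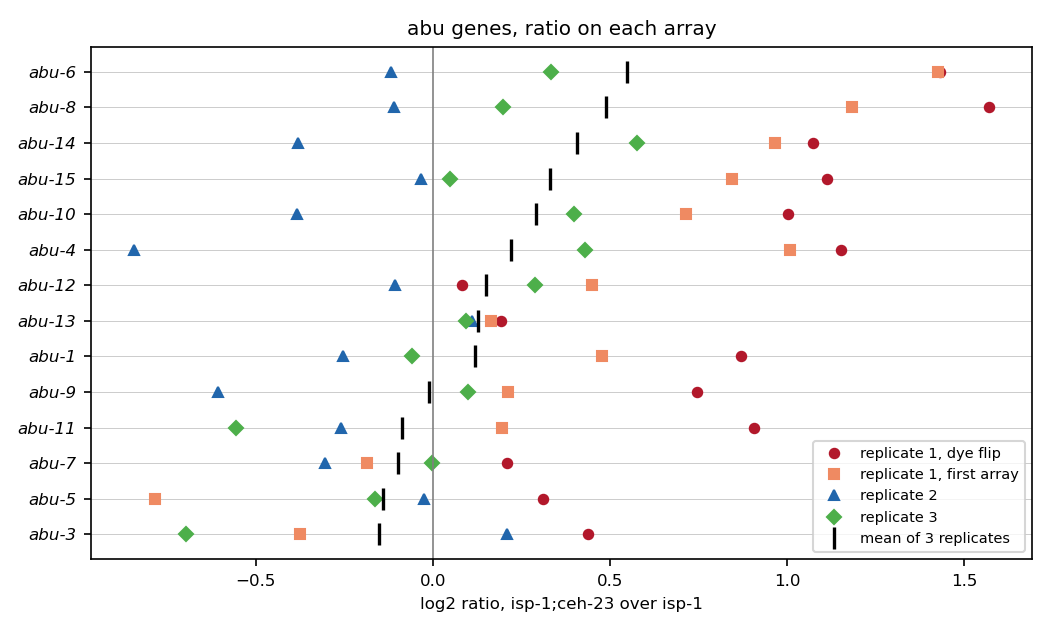
Log2 ratio of isp-1;ceh-23 over isp-1 (horizontal axis) for each of the 14 tested abu genes (rows), with 1 symbol per array and a bar at the mean of 3 replicates. For the 6 genes at the top, both arrays of replicate 1 lie to the right of the other replicates, and replicate 2 lies to the left of 0.

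With the processing used here, abu-6 had the highest mean ratio of the abu genes. In log2 it had 1.43 with either dye orientation in replicate 1, with -0.12 in replicate 2 and 0.34 in replicate 3, a mean ratio of 0.55 ± 0.80 (SD, n = 3, adjusted p = 0.207). Replicate 1 was high on both dye orientations and the other replicates lay near or just above 0. The values of abu-6 came from 1 of its 2 probes, as the other was too dim. With no filter on dim probes its mean was 0.35, below the 0.49 of abu-8. With the scanner's own log ratios abu-6 averaged 0.72, also below abu-8 at 0.88. In levels, the normalized log2 signal of abu-6 was 9.35, 10.97 and 10.43 in the double mutant in replicates 1, 2 and 3, against 7.92, 11.09 and 10.10 in isp-1. The lowest of these 6 levels was that of isp-1 in replicate 1, and the genotypes overlapped. Here and below, overlap of levels compares genotypes across arrays, whereas the ratios compare them within each array. The share of all genes whose levels do not overlap is not given here. Levels without overlap thus cannot be set against the whole array.

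The gene abu-8 had ratios of 1.57 and 1.18 in replicate 1 (dye-flip array first, as for every pair of values of replicate 1), with -0.11 in replicate 2 and 0.20 in replicate 3. Its mean was 0.49 ± 0.78 (SD, n = 3, adjusted p = 0.246). Its levels were 8.70, 9.89 and 9.40 in the double mutant, against 7.32, 10.00 and 9.21 in isp-1. As for abu-6, isp-1 in replicate 1 was the low value. The 5 probes of abu-8 gave means between 0.44 and 0.62, so the high mean was not that of 1 probe.

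For abu-14, whose protein is the one seen in the pharyngeal cuticle, the ratios were 1.07 and 0.97 in replicate 1, -0.38 in replicate 2 and 0.58 in replicate 3, a mean of 0.41 ± 0.72 (SD, n = 3, adjusted p = 0.288). Its levels were 8.97, 9.89 and 10.38 in the double mutant, against 7.95, 10.27 and 9.80 in isp-1. Replicates 1 and 3 were higher in the double mutant and replicate 2 was lower, and the levels of the genotypes overlapped. The gene abu-15, listed in older annotations as pqn-5, had 1.11 and 0.84 in replicate 1, -0.03 in replicate 2 and 0.05 in replicate 3 (mean 0.33 ± 0.56, SD, n = 3, adjusted p = 0.290). Outside replicate 1 its ratio was close to 0.

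**Figure D2:**
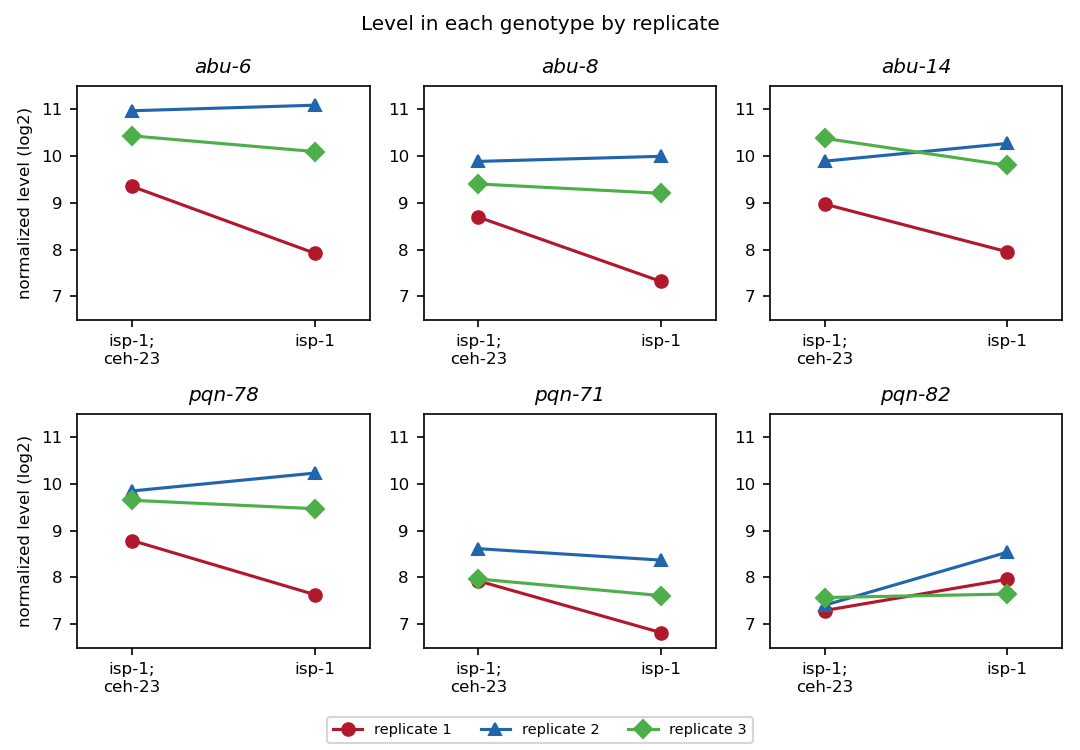
Normalized log2 level (vertical axis, the same range in every panel) of 6 genes in isp-1;ceh-23 and in isp-1, with 1 line per replicate. In the panels of abu-6, abu-8, abu-14, pqn-78 and pqn-71 the lowest point is isp-1 in replicate 1, and for pqn-82 the line of replicate 3 is nearly level.

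Further genes with the same order of replicates were chosen after their values were seen. The gene abu-4 had 1.15 and 1.01 in replicate 1, -0.84 in replicate 2 and 0.43 in replicate 3, which gave the largest SD among the members, 0.98, around a mean of 0.22. The gene abu-10 had 1.00 and 0.72 in replicate 1, -0.38 in replicate 2 and 0.40 in replicate 3. The pqn-91 ratios were 1.26 and 0.59 in replicate 1, -0.67 in replicate 2 and 0.26 in replicate 3. In all, 16 members (8 abu and 8 pqn) were above 0 in replicates 1 and 3 and below 0 in replicate 2, where 6.91% of all genes were. Both conditions of a ratio at least 1.5-fold higher in replicate 1 and below 0 in replicate 2, also set after the values were seen, held for 35 genes on the whole array, 0.256% of those tested. Of these 35 genes, 9 were abu or pqn genes (25.7% of the 35, and 16.1% of the 56 members), namely abu-1, abu-4, abu-6, abu-8, abu-10, abu-14, abu-15, pqn-78 and pqn-91.

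The levels of both genotypes differed between replicates. On each array the log2 ratio is the double mutant's level minus that of isp-1. A larger rise in isp-1 than in the double mutant thus restates the ratios and is not separate support. For abu-6, the double mutant's level was 3.07-fold higher in replicate 2 than in replicate 1, and the isp-1 level was 8.98-fold higher. The same comparison gave 2.28-fold in the double mutant and 6.40-fold in isp-1 for abu-8, and 1.89-fold in the double mutant and 4.98-fold in isp-1 for abu-14. At least 2-fold higher in replicate 2 than in replicate 1 were 3 of 14 abu genes (21.4%) in the double mutant, against 1.35% of all genes, and 9 of 14 (64.3%) in isp-1, against 1.26% of all genes. Among the 42 pqn genes this held for 1 in the double mutant and for 6 in isp-1. Replicate 3 lay closer to replicate 2, with a median abu level above replicate 1 by 0.63 log2 in the double mutant and by 1.32 log2 in isp-1. Because replicate 1 had a slide of its own, the slide and the culture cannot be told apart in these level differences.

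The arrays of replicate 1, which carried the same RNA with the dyes exchanged, also gave different abu ratios. On the dye-flip array 13 of 14 abu genes had a higher ratio than on the first array, by a median of 0.34 log2, while the median over all genes was -0.13. With 1 array per orientation, dye and hybridisation cannot be told apart.

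Genes of pharyngeal muscle were also high in replicate 1. Of 8 pharynx markers, 6 were tested and all 6 had a mean ratio above 0, where 48.3% of all genes had. All 10 body wall muscle markers and all 10 neuronal markers did too. The replicate medians were 1.17, 0.38 and 0.32 for the pharynx markers. They were 0.43, 0.28 and 0.11 for body wall muscle, also highest in replicate 1, and 0.36, 0.45 and 0.19 for neurons. The pharynx markers ceh-22 and hlh-6 were too dim to test. The muscle genes myo-1, myo-2, tnc-2 and tnt-4 were highest in replicate 1, with ratios between 1.05 and 1.80, whereas the pharynx fate gene pha-4 had 0.20, 0.40 and 0.28 and the troponin gene tni-4 had 0.22, -0.05 and 0.09 in replicates 1, 2 and 3. The mean log2 level of the 6 markers was 9.63 to 10.70 in the double mutant, against 8.64 to 10.31 in isp-1, with the lowest value of each genotype in replicate 1. The pharyngeal myosin gene myo-2 had levels of 10.70, 12.20 and 11.71 in the double mutant, against 8.90, 11.61 and 11.13 in isp-1. Its isp-1 level was 6.52-fold higher in replicate 2 than in replicate 1, between the factors of abu-8 and abu-6. Unlike abu-6, myo-2 was higher in the double mutant in all 3 replicates. The wider list of 14 pharyngeal muscle and fate genes, which holds these 6, had its highest median ratio in replicate 2, and its median level was above replicate 1 there by 0.44 log2 in the double mutant and by 0.39 log2 in isp-1. RNA was taken from whole worms, so fewer cells of a type and less RNA per cell cannot be told apart, and the part of pharyngeal tissue or of molt timing in the abu ratios was not tested.

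Not all abu genes had the replicate pattern. The gene abu-13 had 0.19 and 0.16 in replicate 1, 0.11 in replicate 2 and 0.09 in replicate 3, and was the only abu gene above 0 in all 3 replicates. The SD of abu-13 was 0.04 around a mean of 0.13, although its 6 probes gave means between -0.07 and 0.39. The gene abu-11, linked in earlier work to the sirtuin sir-2.1, had 0.91 and 0.20 in replicate 1, -0.26 in replicate 2 and -0.55 in replicate 3, and the arrays of replicate 1 thus differed from each other. The pair of probes of abu-1 disagreed, with means of 0.33 and -0.09. The higher probe had 1.45 and 1.40 in replicate 1 and -0.53 in replicate 2. The lower probe had 0.29 and -0.44 in replicate 1 and 0.03 in replicate 2. The place of abu-1 among the 9 members with the replicate pattern thus rested on 1 probe. The lowest abu means were those of abu-3, an annotated pseudogene, at -0.15 ± 0.48, abu-5 at -0.14 ± 0.11 and abu-7 at -0.10 ± 0.18 (SD, n = 3 each). For abu-3 and abu-5 the arrays of replicate 1 had opposite signs. The sign of abu-3 went with the dye on all 4 arrays. With the double mutant in Cy5 its ratios were 0.44 in replicate 1 and 0.21 in replicate 2. With it in Cy3 they were -0.38 in replicate 1 and -0.70 in replicate 3.

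Several members lie side by side in the RefSeq annotation of assembly WBcel235. On chromosome V, abu-15, abu-6 and abu-7 are consecutive genes, and abu-8 follows after 6 others. Their mean ratios were 0.33, 0.55, -0.10 and 0.49. In replicate 1 abu-7 had 0.21 and -0.18, where the other 3 genes were between 0.84 and 1.57. The pair of probes of abu-7 disagreed there, with 0.46 and 0.28 against -0.04 and -0.65. Of the 3 probes of abu-15, 1 had only 0.37 and 0.11 in replicate 1, so the contrast between these genes depends on the probe. On chromosome IV, pqn-78 is separated from abu-5 by 1 gene, and their means were 0.32 and -0.14. Members of such groups can be similar in sequence, and how far a probe also reads a similar gene was not tested.

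Among the pqn genes, pqn-71 had the highest mean ratio of all members. It had 1.41 and 0.80 in replicate 1, 0.24 in replicate 2 and 0.36 in replicate 3, a mean of 0.57 ± 0.47 (SD, n = 3, adjusted p = 0.0911). The ratio was above 0 on every array, and its levels were 7.92, 8.61 and 7.97 in the double mutant, against 6.82, 8.37 and 7.61 in isp-1. The genotypes overlapped in level because isp-1 in replicate 2 exceeded the double mutant in replicates 1 and 3, which is a comparison across arrays.

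The gene pqn-37 varied less, with 0.48 and 0.70 in replicate 1, 0.54 in replicate 2 and 0.13 in replicate 3 (mean 0.42 ± 0.25, SD, n = 3, adjusted p = 0.0827). Its levels were 9.39, 9.51 and 9.20 in the double mutant, against 8.80, 8.97 and 9.07 in isp-1, and these did not overlap. For pqn-35 the ratios were 0.47 and 0.80 in replicate 1, 0.05 in replicate 2 and 0.55 in replicate 3 (mean 0.41 ± 0.32, SD, n = 3, adjusted p = 0.101). All its ratios were above 0, and the levels overlapped between genotypes. Ratios of pqn-78 were 1.46 and 0.85 in replicate 1, -0.38 in replicate 2 and 0.18 in replicate 3 (mean 0.32 ± 0.78, SD, n = 3, adjusted p = 0.427). Like pqn-71 and pqn-35, it was highest in replicate 1 and lowest in replicate 2. Of these genes, only pqn-78 was below 0 in replicate 2, as the abu median was. Without replicate 1 the mean of pqn-78 was -0.10.

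**Figure D3:**
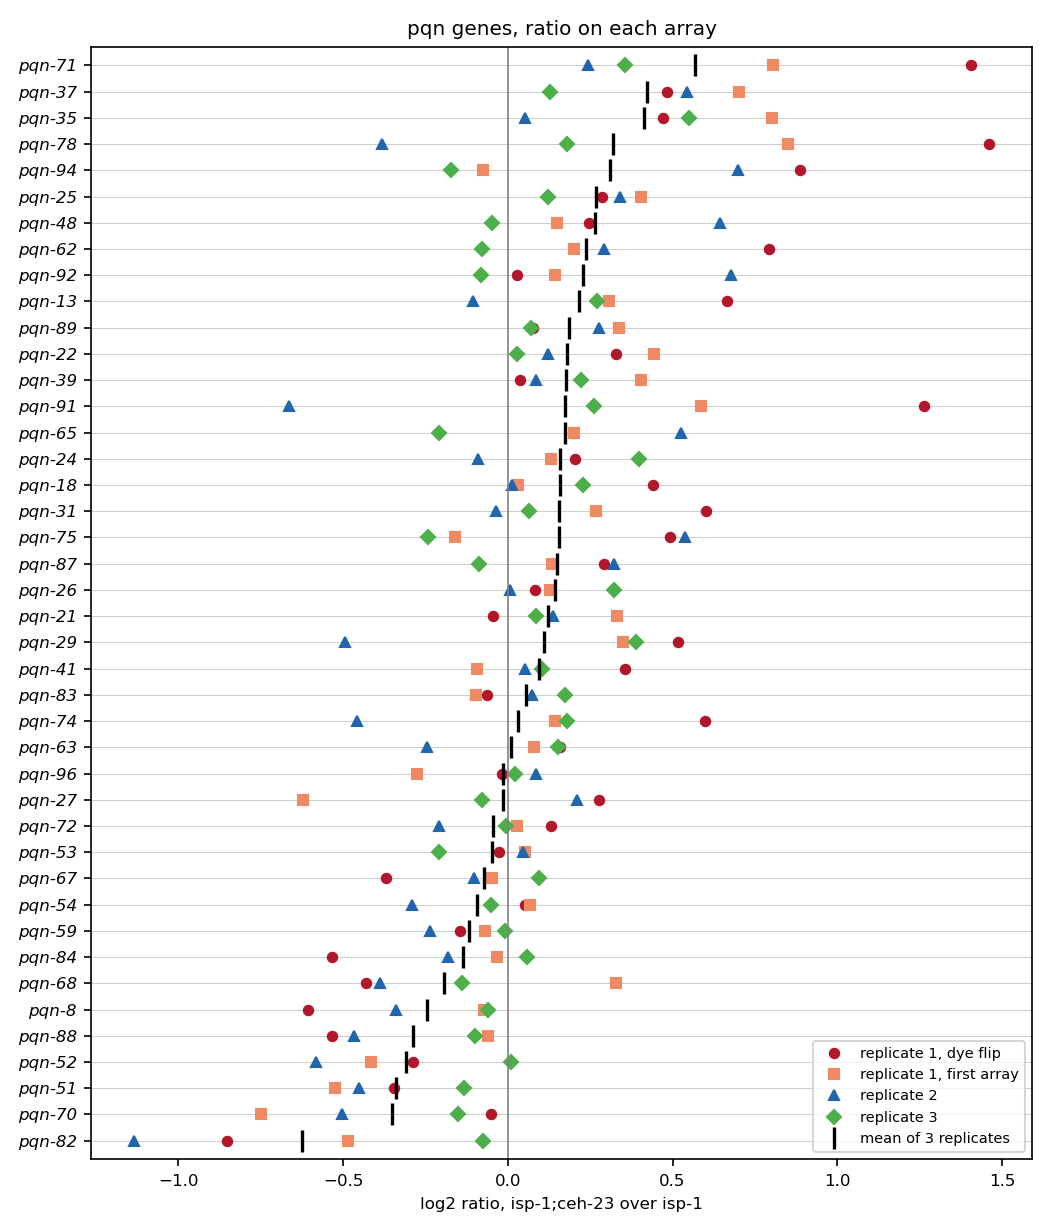
Log2 ratio of isp-1;ceh-23 over isp-1 (horizontal axis) for each of the 42 tested pqn genes (rows), with 1 symbol per array and a bar at the mean of 3 replicates. Most genes in the middle rows have arrays on both sides of 0, pqn-71 at the top has all 4 arrays above 0, and pqn-82 at the bottom has all 4 below 0.

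At the low end, pqn-82 had -0.85 and -0.48 in replicate 1, -1.13 in replicate 2 and -0.07 in replicate 3. Its mean was -0.63 ± 0.53 (SD, n = 3, adjusted p = 0.0910). Its levels were 7.29, 7.40 and 7.57 in the double mutant, against 7.96, 8.54 and 7.64 in isp-1, which did not overlap, although in replicate 3 the genotypes were nearly equal. With the scanner's own log ratios in place of the normalization used here, pqn-82 passed as lower (adjusted p = 0.0471), and 12.7% of all genes were then called. It also passed with dye as a covariate (adjusted p = 0.0177) and without replicate 3 (adjusted p = 0.00045), where 30.3% and 43.3% of all genes were called. With replicate 1 averaged over both dyes, dye differed only between replicates 2 and 3. Dye thus cannot be told apart from the difference between those replicates.

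The gene pqn-70 had -0.05 and -0.75 in replicate 1, -0.50 in replicate 2 and -0.15 in replicate 3 (mean -0.35 ± 0.18, SD, n = 3, adjusted p = 0.0905). The ratios of pqn-51 were -0.35 and -0.52 in replicate 1, -0.45 in replicate 2 and -0.13 in replicate 3 (mean -0.34 ± 0.18, SD, n = 3, adjusted p = 0.0943), and its 3 probes gave means between -0.42 and -0.27. Both genes were below 0 on every array, and levels of pqn-51 were 10.16, 10.23 and 10.29 in the double mutant, against 10.59, 10.68 and 10.42 in isp-1, without overlap.

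For pqn-52, the ratios were -0.29 and -0.41 in replicate 1, -0.58 in replicate 2 and 0.01 in replicate 3 (mean -0.31 ± 0.30, adjusted p = 0.161). The gene pqn-88 had -0.53 and -0.06 in replicate 1, -0.47 in replicate 2 and -0.10 in replicate 3 (mean -0.29 ± 0.18, adjusted p = 0.128), and pqn-8 had -0.61 and -0.07 in replicate 1, -0.34 in replicate 2 and -0.06 in replicate 3 (mean -0.25 ± 0.16, adjusted p = 0.159). In each of these 3 genes replicate 3 was closest to 0. Of the 42 pqn genes, 11 were above 0 in all 3 replicates and 7 below 0, where 29% and 30.6% of all genes were.

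Fewer genes of the whole array were 1.5-fold apart in replicate 3 than in the others, and leaving it out changed the calls. Then 14 pqn genes of the 56 members passed, 8 higher and 6 lower, where 43.3% of all genes did. With dye as a covariate 8 members passed, pqn-35, pqn-37 and pqn-94 as higher and pqn-51, pqn-52, pqn-70, pqn-82 and pqn-88 as lower, where 30.3% of all genes passed. That fit took the difference between replicates 2 and 3 out of the error, since dye differed only between them. With slide as a covariate, abu-6, abu-8 and pqn-71 passed as higher, where 9.24% of all genes passed. Replicate 1 had a slide to itself, so this fit gave it as much weight as replicates 2 and 3 together. It also took the difference between the slides out of the error. Without replicate 1 none of these genes passed, and abu-6 averaged 0.11 (limma, adjusted p = 0.823).

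Some pqn genes with known roles outside the pharyngeal cuticle were added after their values were seen. The stress granule protein gene pqn-59, a homolog of human UBAP2L, had 19 kept probes with means between -0.27 and 0.18 and a gene mean of -0.12 ± 0.11 (SD, n = 3, adjusted p = 0.427). The gene pqn-41, which promotes death of the male linker cell, had a mean of 0.10 ± 0.04 (SD, n = 3, adjusted p = 0.489). The gene pqn-75, expressed in pharyngeal gland cells, had 0.49 and -0.16 in replicate 1, 0.54 in replicate 2 and -0.24 in replicate 3. The pqn-75 ratio was positive on both arrays with the double mutant in Cy5 and negative on both with it in Cy3.

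The 11 dim members were abu-2, pqn-10, pqn-11, pqn-15, pqn-16, pqn-20, pqn-36, pqn-42, pqn-73, pqn-80 and pqn-90. Without the filter on dim probes, 10 of them had mean ratios between -0.10 and 0.04, and pqn-11, a pseudogene, had no value in replicate 3. Probes near background give ratios close to 0, so these values do not bear on whether the genes differ. No probe was named for pqn-2, pqn-57, pqn-76 or pqn-79, which are not analysed here.

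Other genes of the pharyngeal cuticle, taken as the families idpa, idpb, idpc, idpp, nspb and phat with the pharyngeal chitin synthase chs-2 and 4 peptidases, had 48 of 56 genes tested. None passed in either direction, and the median log2 ratio was 0.10. At an unadjusted p under 0.05, 9 were higher and 6 lower, where 13.6% and 22.3% of all genes were. By replicate, the medians were 0.33, -0.26 and 0.20, the same order of signs as for the abu genes. Their isp-1 level was at least 2-fold higher in replicate 2 than in replicate 1 for 23 of 48 genes (47.9%), and their double mutant level for 4 (8.33%). Of the 35 genes with a high ratio in replicate 1 and a negative one in replicate 2, 7 belonged to this list (20%), so this list and the members made up 45.7% of the 35. In 6 genes of the list, against 1.37% of all genes and no member, the ratio was positive on all 4 arrays and at least 1.5-fold. Among them idpp-1, an intrinsically disordered cuticle protein gene, had 2.26 and 1.37 in replicate 1, 0.80 in replicate 2 and 0.54 in replicate 3 (mean 1.05 ± 0.67, SD, n = 3, adjusted p = 0.0575). The related idpp-16 averaged 0.67 ± 0.28 (adjusted p = 0.0502) and phat-8, of a family of mucin-like gland proteins, 0.62 ± 0.34 (adjusted p = 0.0585). The gene nspb-5 averaged -0.47 ± 0.23 (adjusted p = 0.0667).

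**Figure D4:**
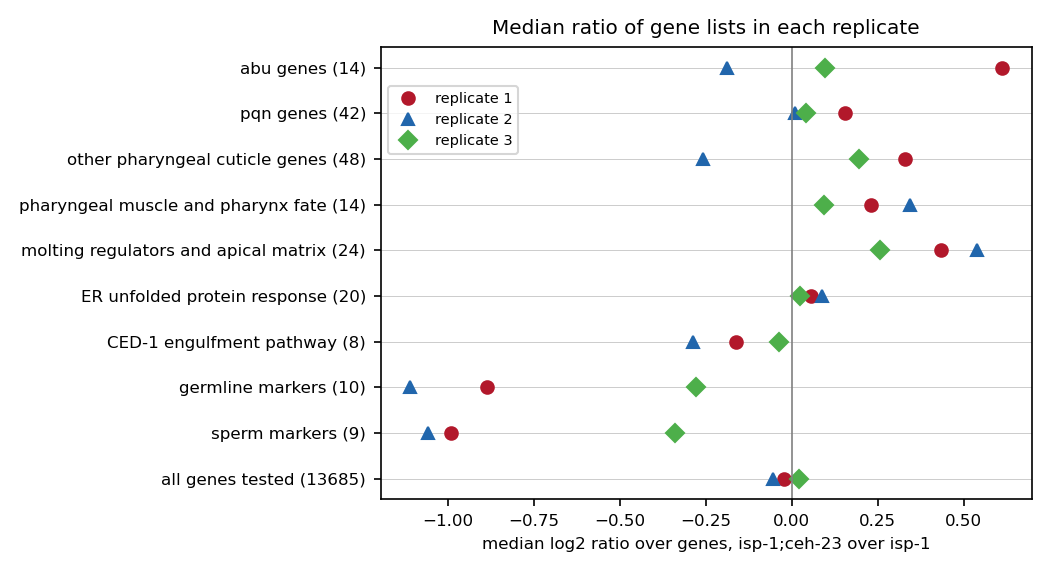
Median log2 ratio of isp-1;ceh-23 over isp-1 (horizontal axis) in each replicate for the abu and pqn genes, the other gene lists and all genes tested, with the number of tested genes in brackets. The abu genes and the other pharyngeal cuticle genes have replicate 1 above 0 and replicate 2 below it, while molting genes have all 3 replicates above 0 and germline and sperm markers all 3 below.

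Pharyngeal muscle and pharynx fate genes had 14 of 17 tested, with none past the test and a median of 0.24. There were 6 higher and 0 lower at an unadjusted p under 0.05, against 13.6% and 22.3% of all genes. Their replicate medians of 0.23, 0.34 and 0.09 were all above 0, without the order seen for the abu genes. The myosin genes myo-2 and myo-1 averaged 0.99 ± 0.70 (adjusted p = 0.0649) and 0.57 ± 0.42 (adjusted p = 0.0787). The troponin genes tnc-2 and tnt-4 averaged 0.79 ± 0.48 (adjusted p = 0.0585) and 0.73 ± 0.59 (adjusted p = 0.0815).

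Molting regulators and apical matrix genes were the one list of the pathway with genes past the test. Of 24 tested genes, 4 rose and none fell, where 0.775% of all genes were called higher and 2.59% lower. The median of the list was 0.47, with replicate medians of 0.44, 0.54 and 0.26. The nuclear receptor gene nhr-25, needed for molting, rose by 0.79 ± 0.15 log2 (SD, n = 3, adjusted p = 0.0494) with 0.94 and 0.96 in replicate 1, 0.78 in replicate 2 and 0.66 in replicate 3. The apical matrix gene let-653 rose by 0.78 ± 0.32, the lipoprotein receptor gene lrp-1 by 0.58 ± 0.15 and the hedgehog-related gene qua-1 by 0.52 ± 0.05, with the same adjusted p of 0.0494. These adjusted p values lie just under the threshold, and none of the 24 genes was called with median centring, no background correction, no filter on dim probes or outlier spots kept, or without replicate 1 or replicate 2. The calls of lrp-1 and qua-1 were also lost with trend and robust moderation and with the dye-flip array of replicate 1 alone. With slide as a covariate, qua-1 was not called either. The nuclear receptor gene nhr-23 had a mean of -0.01 ± 0.06 (adjusted p = 0.934).

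The unfolded protein response, in which the abu genes were first described, had 20 of 22 genes tested and none past the test. At an unadjusted p under 0.05, 2 were higher and 2 lower, against 13.6% and 22.3% of all genes. The median was 0.07, with replicate medians of 0.06, 0.09 and 0.02, so this list did not follow the abu genes from replicate to replicate. The BiP gene hsp-4 had -0.13 and -0.22 in replicate 1, -0.60 in replicate 2 and -0.60 in replicate 3 (mean -0.46 ± 0.24, SD, n = 3, adjusted p = 0.0713). The other BiP gene, hsp-3, averaged 0.05 ± 0.15 and the transcription factor gene xbp-1 averaged 0.10 ± 0.19. The thioredoxin-domain chaperone gene dnj-27 averaged 0.48 ± 0.18 (adjusted p = 0.0585), the sensor kinase gene pek-1 0.29 ± 0.14 (adjusted p = 0.111) and the ubiquitin ligase gene sel-11 -0.24 ± 0.07 (adjusted p = 0.131).

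The CED-1 engulfment pathway had 8 of 9 genes tested, with none past the test and a median of -0.16. Of these, 0 were higher and 3 lower at an unadjusted p under 0.05, against 13.6% and 22.3% of all genes. The receptor gene ced-1 itself had -0.10 and -0.12 in replicate 1, 0.15 in replicate 2 and 0.08 in replicate 3 (mean 0.04 ± 0.13, SD, n = 3, adjusted p = 0.797). In replicate 1, where the abu median was highest, ced-1 was slightly below 0, and a part of CED-1 in the abu ratios was not tested. The adaptor gene ced-2 averaged -0.62 ± 0.23 (adjusted p = 0.0502), ced-12 averaged -0.35 ± 0.24 (adjusted p = 0.108), ced-6 averaged -0.26 ± 0.15 (adjusted p = 0.135) and the Rac gene ced-10 averaged 0.18 ± 0.16 (adjusted p = 0.282).

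Markers of other cell types gave median ratios of 0.29 for hypodermis, 0.10 for intestine, 0.27 for body wall muscle and 0.36 for neurons. In hypodermis, wrt-10 rose by 0.90 ± 0.42 (SD, n = 3, adjusted p = 0.0499). This call was lost under the 6 settings that left no molting gene called, and with the dye-flip array of replicate 1 alone. The adult-stage collagen gene col-19 had -2.25 and -2.40 in replicate 1, -1.75 in replicate 2 and -0.61 in replicate 3 (mean -1.56 ± 0.87, adjusted p = 0.0501). Of the germline and sperm markers 4 fell in each list, where 2.59% of all genes were called lower. No marker of either list passed with median centring, no background correction, no filter on dim probes or outlier spots kept, or without replicate 2. The part of these differences in the ratios of the abu and pqn genes was not tested.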

How the data were processed

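Total RNA of synchronized mid-L4 worms was isolated, cRNA was amplified from 100 ng and labelled with Cy3 and Cy5, per the labels' protocols. The arrays were quantified with Agilent Feature Extraction 10.5.1.1 on a design of build ce4, per the file headers. The deposited scanner files hold the median intensity of each spot and its background per channel, not normalized, together with processed intensity values. They also hold the authors' log10 ratio of Cy5 over Cy3, and the deposited series table holds the same log10 ratios. Other deposited columns are flags of 0 or 1.

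In R 4.3.3 with limma 3.58.1, median signals were background-corrected by normexp (offset of 50) and normalized by loess within each array, with control and outlier spots at weight 0. The labels' dyes gave each ratio its direction, isp-1;ceh-23 on top, in log2. A probe stayed in if every one of the 3 replicates flagged it above background in either genotype, and a gene's value was the mean of its kept probes. Levels are the separate channels after loess and Aquantile scaling. The arrays of replicate 1 were averaged, and 3 replicate values were tested against 0 by lmFit and eBayes, on both sides, with p adjusted by Benjamini-Hochberg over 13685 genes and a threshold of 0.05. SD values are over 3 replicates. The labels call the samples biological replicates but do not name separate cultures.

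Of 43803 spots, 35017 were named by sequence name and 356 by accession through the RefSeq table of assembly WBcel235, and 8430 were not named. As builds differ, no coordinates are given. The members and lists were chosen with earlier results of these data known. Named were the 8 highest and 6 lowest mean ratios among tested members, and in each other list up to 4 genes with the smallest unadjusted p. Genes outside this rule (abu-1, abu-3, abu-4, abu-5, abu-7, abu-10, abu-11, abu-13, pqn-41, pqn-59, pqn-75, pqn-91, hsp-3, xbp-1, nhr-23, ced-1, pha-4, tni-4) were added after their values were seen. Protein classes that had been planned were not used here.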

Additional observations from a re-analysis of the deposited data

How the results depend on the processing

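No member was called under the alternatives for which no called member is given here. The scanner's log ratios gave 0 higher and 1 lower member, with 3 members concordantly higher and 758 higher and 976 lower genes in all, and the deposited series table gave 0 and 1, 3, and 759 and 977. Slide as a covariate gave 3 higher members, 1 concordantly higher, and 175 and 1089 genes. Dye as a covariate gave 3 higher and 5 lower members, and 1382 and 2769 genes. With no background correction or an offset of 0, 1 member was concordantly higher, with 1 and 1 or 420 and 1071 genes called. Median centring gave 0 and 0 genes, no filter on dim probes 0 and 1, the strict filter 172 and 583, outlier spots kept 0 and 1, and the brightest probe 229 and 748. The dye-flip array alone gave 1 concordantly higher member and 618 lower genes, and the first array alone 0 concordantly lower members and 169 and 608 genes. Leaving out 1 replicate gave 0 to 8 higher and 0 to 6 lower members, 0 to 9 concordantly higher and 0 to 1 concordantly lower members, 0 to 2018 higher and 1 to 3921 lower genes, and a member median between 0.03 and 0.13. The highest counts of calls came without replicate 3, where 2 replicates were left, and the 9 concordant members came without replicate 2. The share of all genes meeting the concordance rule is given for the main processing only. Counts of concordant members under the alternatives thus cannot be set against the whole array. The mean of pqn-78 was between -0.10 (without replicate 1, reversed) and 0.67 (without replicate 2). Of the other alternatives for named members, 217 kept their call and sign and 20 passed the threshold. Why the calls moved was not tested. The test was paired throughout, since each array holds both genotypes of a replicate.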
